A study of Mus musculus with 2 samples.

Results

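C1q-high macrophages of the mouse ovary were the cells in which all 3 chains of complement component C1q (C1qa, C1qb and C1qc) were detected and summed to at least 1000 counts per 1000000 (CPM). At least 1 unique molecular identifier (UMI) of Csf1r, the receptor for colony-stimulating factor 1, was also required, and Inha, the inhibin alpha gene of granulosa cells, had to stay under 5000 CPM. The rule took 390 cells of the control library and 166 cells of the PS-MP library, or 556 of the 29623 cells that had at least 500 genes and at most 25% mitochondrial counts.

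The study gave polystyrene microplastic particles (PS-MP) by mouth to female ICR mice, an outbred strain, and profiled single cells of the ovary with the BD Rhapsody microwell system. Mice were gavaged daily from 3 weeks of age for 35 days and their ovaries were taken 24 h after the last dose, at 8 weeks of age. The control group received ddH2O. The treated group, 0.1-H, received particles of 0.1 µm at 1 mg per 100 µL per mouse. The labels state 16 mice without saying whether this is per group, and no column or label ties a cell to a mouse. Each group was therefore 1 library, every difference below compares 2 libraries with no replicate check, and the 95% intervals cover counting error only.

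Macrophages are phagocytes that take up dying cells, lipoproteins and iron, digest them in lysosomes, and present peptides to T cells on MHC class II molecules. In the ovary they lie between follicles and in corpora lutea, where they clear the cells of degenerating follicles and regressing corpora lutea. C1q is the recognition subunit of the classical complement pathway; macrophages are a main source of it in tissues, and it also tags apoptotic cells for uptake.

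The steps of the rule narrowed the cells unevenly. At least 1 C1q chain was detected in 1083 control and 593 PS-MP cells, all 3 chains in 430 and 193, and the 1000 CPM sum was reached in 408 and 182. The Csf1r requirement left 402 and 178 cells, and the Inha limit removed another 12 cells from each library. Among the cells that met every other part of the rule, those nearest to the C1q limit had 1026 CPM inside and 600.3 CPM outside it in control, and 1203 CPM inside and 992 CPM outside it in PS-MP. Likewise, the cells nearest to the Inha limit had 4802 CPM inside and 5309 CPM outside it in control, and 3486 CPM inside and 5130 CPM outside it in PS-MP. Most cells were far from both limits: the median C1q sum was 8676 CPM in control and 9718 CPM in PS-MP, and the median Inha level was 162 and 195 CPM, against 10607 and 10796 CPM in the granulosa cells of the same libraries. That gap was set by the definitions, since granulosa cells were taken at 5000 CPM of Inha or more.

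The selected cells carried the genes of macrophages in both libraries. Adgre1, which encodes F4/80, was at 506 CPM in control and 527 CPM in PS-MP, and Mrc1, the mannose receptor, at 523 and 575 CPM. Lysozyme (Lyz2) reached 11230 and 12637 CPM, Cd68 1603 and 1558 CPM, and the fractalkine receptor Cx3cr1 756 and 713 CPM. A UMI of Ptprc, the pan-leukocyte gene CD45, was present in 362 of the 390 control cells and 143 of the 166 PS-MP cells. The 4 mast cell and basophil markers in the files were at 0 in both libraries, as was the neutrophil marker Ly6g. T, NK and innate lymphoid markers summed to 82.6 and 71.1 CPM, mostly Il7r at 65.1 and 66.7 CPM, and dendritic cell markers to 111 and 91.1 CPM, mostly Fscn1.

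The word resident fitted these cells only in part. Of the genes that mark long-lived tissue macrophages, Cbr2 was at 463 CPM in control and 413 CPM in PS-MP, F13a1 at 248 and 190 CPM and Folr2, a folate receptor, at 114 and 125 CPM. Lyve1 reached only 31.4 and 34.8 CPM, the haemoglobin scavenger receptor Cd163 23.5 and 20 CPM and Timd4, a phosphatidylserine receptor, 13.1 and 12.6 CPM. Vsig4 was at 0 in both libraries, which allows up to 0.784 CPM in control and 2.22 CPM in PS-MP (3 UMIs of the total). Ccr2, the receptor that monocytes use to enter tissue, was at 315 and 224 CPM. The cells are therefore called C1q-high macrophages here, with no statement on their origin.

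**Figure D1:**
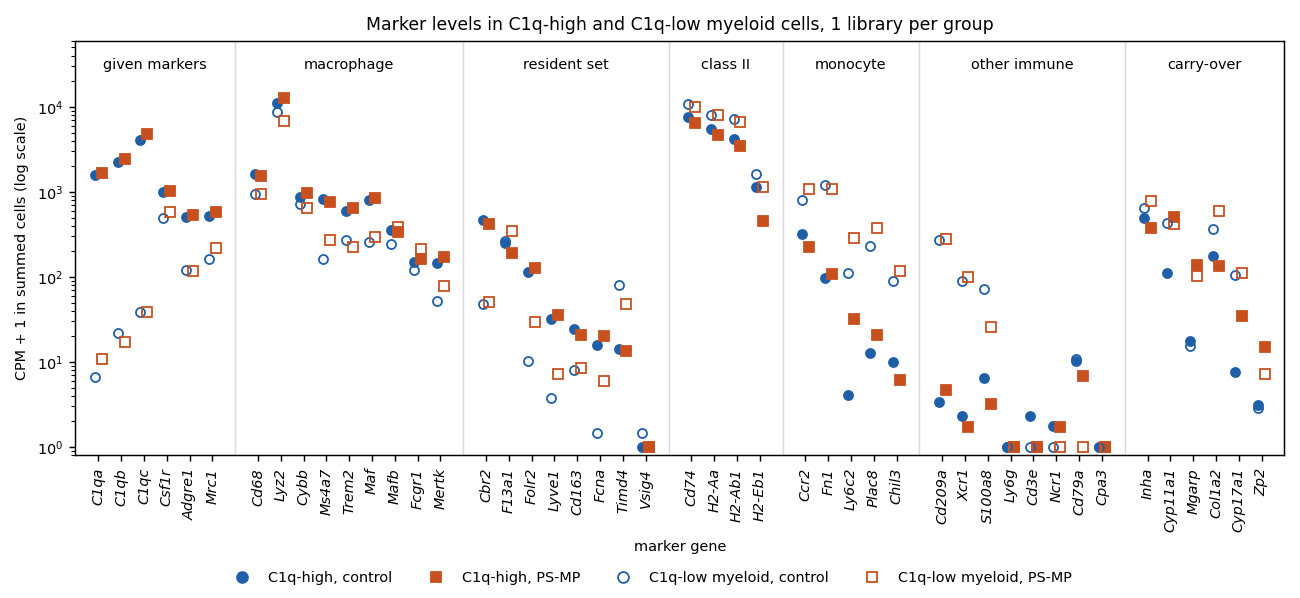
Levels of marker genes (CPM + 1, log scale) in the summed C1q-high cells (filled symbols) and in the myeloid cells with little C1q (open symbols), with circles for control and squares for PS-MP, 1 library per group. The macrophage genes sit above 100 CPM in C1q-high cells of both libraries, Lyve1, Cd163, Fcna and Timd4 sit below 50 CPM, and Vsig4 is at 0.

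The marker plot sets the cells beside C1q-low myeloid cells, defined by Tyrobp, Fcer1g and Ptprc UMIs, a C1q sum under 1000 CPM, the same Inha limit and no UMI of 4 lymphoid or plasmacytoid genes. Genes outside the rule were also higher in the C1q-high cells than in all other kept cells together. Compared with all other kept cells, the summed level of Fcrls was 365-fold higher, of the lectin receptor gene Klra8 247-fold, of the chemokine gene Ccl12 244-fold, of the collagenase gene Mmp13 230-fold and of the prostaglandin synthase gene Hpgds 224-fold. Siglec1, a sialic acid receptor, was 223-fold higher, Cbr2 194-fold and the complement receptor C3ar1 146-fold. C1q-low myeloid cells had part of these levels. C3ar1 was at 190 CPM in control and 277 CPM in PS-MP there, against 488 and 541 CPM in C1q-high macrophages. Ccl12 was at 25.7 and 138 CPM there, against 206 and 429 CPM. Fcrls was at 42.4 and 57.1 CPM there, against 434 and 505 CPM. The folds describe cells chosen for C1q and were not tested.

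C1q-high macrophages made up 2.63% of the kept control cells (390 of 14853; exact Clopper-Pearson interval 2.37 to 2.90%) and 1.12% of the kept PS-MP cells (166 of 14770; 0.960 to 1.31%). The share in PS-MP was lower and the intervals did not overlap. Luteal cells, the steroid-making cells of corpora lutea, took 2.48% of the control cells and 13.9% of the PS-MP cells. With luteal cells left out of the denominator, the shares were 2.69% (2.44 to 2.97%) and 1.31% (1.12 to 1.52%). C1q-low myeloid cells took 1.97% of the kept cells in control and 0.914% in PS-MP. Among cells with a Ptprc UMI, C1q-high macrophages took 30.3% in control (27.7 to 33.0%) and 26.0% in PS-MP (22.3 to 29.8%), and these intervals overlapped. The lower share of C1q-high macrophages thus went with a lower share of the other leukocytes.

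The 2 libraries held 160257194 and 145474989 UMIs in 15373 and 15056 deposited cells, and only 3 barcode numbers occurred in both. Within the C1q-high cells the median was 7992.5 UMIs and 2812 genes per control cell, and 6499.5 UMIs and 2533.5 genes per PS-MP cell. The summed cells gave 3825154 control and 1349813 PS-MP UMIs. Scrublet called 22 and 8 of the C1q-high cells doublets.

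RNA of other ovarian cells was counted in these macrophages, and its amount differed between the libraries. It was estimated from the marker genes of 6 kinds of source cells, as the level of those markers in C1q-high cells as a percentage of their level in the source cells of the same library. Granulosa markers other than Inha stood at 6.08% in control and 6.01% in PS-MP. Luteal markers stood at 1.36% in control and 7.05% in PS-MP: Cyp11a1, which makes pregnenolone, was at 109 and 507 CPM, Mgarp at 16.5 and 137 CPM and the luteinising hormone receptor Lhcgr at 11.8 and 78.5 CPM. Stromal markers stood at 2.18% and 1.6%, endothelial markers at 0.518% and 0.818%, thecal markers at 0.116% and 0.657% and oocyte markers at 0.0966% and 0.406%. Over all genes the estimate came to 10.4% of the control UMIs and 16.5% of the PS-MP UMIs.

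**Figure D2:**
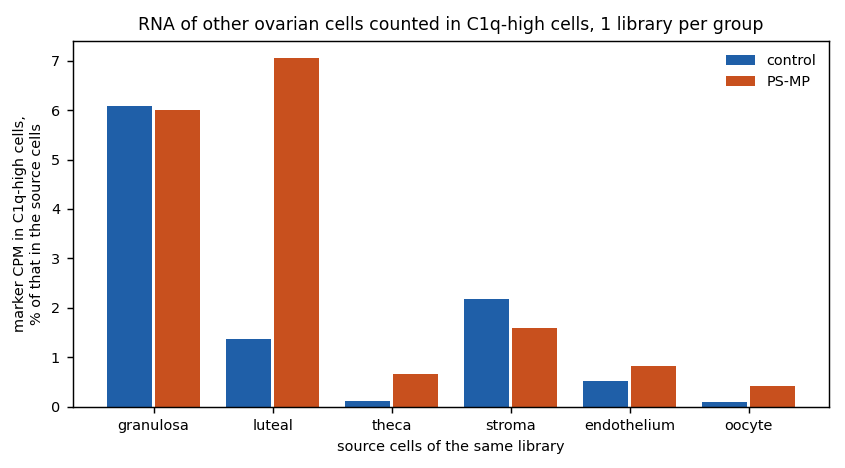
Marker level of 6 kinds of ovarian cells inside C1q-high macrophages, as a percentage of the level in the source cells of the same library (bars from 0; blue control, orange PS-MP, 1 library each). Granulosa markers take about the same percentage in both libraries (6.08% and 6.01%), while luteal markers take 1.36% in control and 7.05% in PS-MP.

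The bars of carried-over RNA hide a very uneven spread among cells. In PS-MP the 10 cells with the most luteal marker UMIs held 75.4% of them and 48 cells had none, while in control the top 10 cells held 33.4% and 159 cells had none. At least 10 luteal marker UMIs were counted in 15 PS-MP and 6 control cells. The top 10 cells held 42.9% and 50.4% of the granulosa marker UMIs, and 82.5% and 68.4% of the stromal ones. Genes were therefore counted only where the estimate was under 20% of the level in the library where the gene was higher.

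For each gene the UMIs of all C1q-high cells of a library were summed and scaled to CPM, and the PS-MP level was divided by the control level. A gene was called higher or lower by size alone, at 1.5-fold, if it had at least 50 CPM in a library and passed the carry-over limit; such genes are called measured below. Of 3099 such genes, 52 were called higher in PS-MP (1.68%) and 48 lower (1.55%). At the smaller size of 1.2-fold, 302 were higher (9.75%) and 476 lower (15.4%), and the median ratio was -0.06 on the log2 scale. A gene near 50 CPM can pass through the library where it is high. Of the 2705 genes with at least 50 CPM in both libraries, 23 were 1.5-fold higher (0.85%) and 17 lower (0.628%), and 204 were 1.2-fold higher (7.54%) and 329 lower (12.2%).

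**Figure D3:**
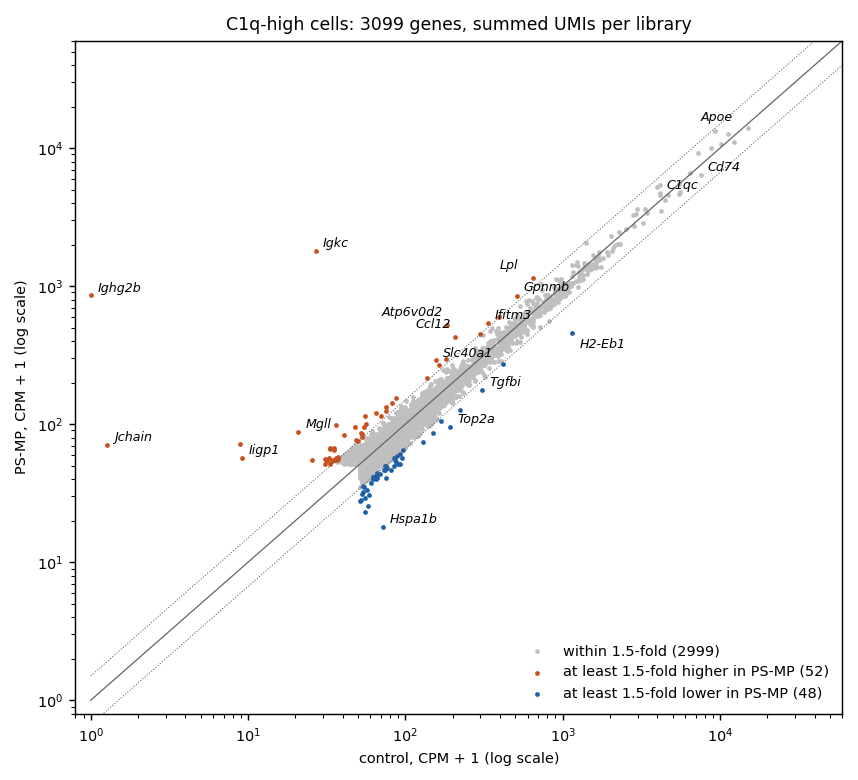
Level of each of 3099 genes in the summed C1q-high cells of the control library (x axis) and the PS-MP library (y axis), in CPM + 1 on log scales. Orange points are the 52 genes at least 1.5-fold higher in PS-MP, blue points the 48 at least 1.5-fold lower, and dotted lines mark 1.5-fold; C1qc and Cd74 lie within them.

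In the plot of the libraries against each other most genes of macrophage identity lay on the diagonal. C1qa was at 1565 CPM in control and 1688 CPM in PS-MP, C1qb at 2276 and 2451 CPM, C1qc at 4136 and 4739 CPM and Csf1r at 990 and 1013 CPM, which the selection fixed in part. Cells at 1000 CPM or more of C1q were required in both libraries, so these levels support nothing. Of 18 complement genes in the files 9 were measured, and all 9 were within 1.2-fold, but 3 of them are the C1q chains that the rule used. The others included the receptors C3ar1 at 488 and 541 CPM, C5ar1 at 334 and 386 CPM, and properdin (Cfp) at 459 and 440 CPM.

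Interferon-stimulated genes, which cells switch on through the receptors for type I and type II interferon, were higher in the PS-MP library. Of 44 such genes in the files, 42 had a higher CPM in PS-MP, against 43.1% of the 18649 genes with any UMI. The carry-over limit and 50 CPM in a library were met by 19 of the 44, of which 8 were at least 1.5-fold higher and none lower. Since 6 of the 19 passed through PS-MP only, the 13 with 50 CPM in both libraries are the fairer count: 4 were 1.5-fold higher and 8 were 1.2-fold higher, with no gene 1.2-fold lower. Of all 2705 genes with 50 CPM in both libraries, 0.85% were 1.5-fold higher and 7.54% were 1.2-fold higher. The median log2 ratio of the 13 was 0.40, against -0.05 for the 2705.

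Promoters are shown for the measured members that match the letters of an interferon-stimulated response element, a site bound by interferon regulatory factors. Binding was not tested. The letters GAAANNGAAA or their other-strand form TTTCNNTTTC were searched in the 250 bases before each gene start of RefSeq on GRCm38.p6. They occur in 2.98% of 32851 promoters and for 3.46% of 27025 genes. Of the 19 measured members, 13 had a promoter in the table and 7 of these held the letters, in capitals below.
Gbp2, chr3:142620584-142620633, plus strand: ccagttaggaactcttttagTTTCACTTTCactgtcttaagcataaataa
Gbp7, chr3:142530263-142530312, plus strand: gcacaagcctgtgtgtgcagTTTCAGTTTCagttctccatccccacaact
Gbp3, chr3:142559979-142560034, plus strand: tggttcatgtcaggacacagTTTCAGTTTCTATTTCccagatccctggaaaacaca
Slfn5, chr11:82951927-82951976, plus strand: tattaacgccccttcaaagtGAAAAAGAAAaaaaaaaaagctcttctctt
Trim30a, chr7:104465200-104465249, minus strand: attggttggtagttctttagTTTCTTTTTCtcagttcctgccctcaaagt
Ifi207, chr1:173741821-173741870, minus strand: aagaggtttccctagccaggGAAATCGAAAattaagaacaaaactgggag
Cxcl10, chr5:92349073-92349122, minus strand: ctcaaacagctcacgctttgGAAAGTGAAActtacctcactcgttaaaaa

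The 3 guanylate-binding protein genes are neighbours on chromosome 3, and their matches ended 49, 43 and 29 bases before the start of Gbp2, Gbp7 and Gbp3. The match in Gbp3 spans 2 overlapping copies, and the match in Slfn5 runs into a stretch of A. Another interferon motif searched, TTCNNNGAA, occurs for 8.13% of 27025 genes. It was found in 2 of the 13 members, Irf1 and Gbp7. Members with the letters of the response element had PS-MP over control ratios from 0.987 to 2.07. Gbp2 was at 2.07-fold, Gbp7 at 1.72-fold, Slfn5 at 1.45-fold and Gbp3 at 1.41-fold, whereas Trim30a was at 1.04-fold, Cxcl10 at 1.01-fold and Ifi207 at 0.987-fold.

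Iigp1, an interferon-inducible GTPase that acts on the vacuoles of intracellular parasites, had the largest ratio of the list. Its level was 8.10 CPM in control and 56.3 CPM in PS-MP, a 6.95-fold difference (interval 4.52 to 10.9). Iigp1 reached 50 CPM in PS-MP alone, so it was measured only through the library where it was high. At an equal depth of 3500 UMIs per cell, 2.82% (1.42 to 4.99%) of control cells and 12.7% (8.00 to 18.7%) of PS-MP cells had an Iigp1 UMI, against 1.18% and 1.49% of granulosa cells. Without thinning the shares were 4.10% and 16.3%. Iigp1 was thus found in a larger share of the PS-MP cells.

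Gbp2 was at 54.6 CPM in control and 113 CPM in PS-MP (2.07-fold, 1.67 to 2.57), and Gbp2 UMIs were found in 17.4% of control and 31.9% of PS-MP cells at equal depth (31.3% and 41.0% without thinning), against 2.07% and 3.08% of granulosa cells. Ifi47, another interferon-inducible GTPase, was outside the list and was at 35.0 and 97.1 CPM, 2.77-fold (2.16 to 3.55). It reached 50 CPM in PS-MP alone. Ifitm3, which blocks viral entry, was the most abundant member called, at 334 and 539 CPM (1.62-fold, 1.47 to 1.77). Others called were Rtp4, at 24.6 and 54.1 CPM (2.20-fold), and the oligoadenylate synthetase-like gene Oasl2, at 32.4 and 65.9 CPM (2.03-fold). Both reached 50 CPM in PS-MP alone. Gbp7 at 1.72-fold and the DNA sensor gene Ifi204 at 1.67-fold were called too. Of the others called, Gbp7 had the widest range over the other settings tried, 1.25 to 1.84-fold. Its lowest value came when cells with UMIs of other lineages were left out. Carried-over RNA was estimated at 5.64% of the level for Iigp1, 5.36% for Gbp2, 3.88% for Ifitm3 and 3.22% for Rtp4, and the part of the higher luteal RNA of the PS-MP library in these values was not tested. The Gbp and Ifi200 genes have close paralogs, so reads may be split among them.

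Many classical members stayed too low to be counted singly. Rsad2 was at 5.75 CPM in control and 25.2 CPM in PS-MP, Irf7 at 7.58 and 19.3 CPM, Isg15 at 7.06 and 12.6 CPM, and Ifit1 at 3.66 and 8.89 CPM. Zbp1, a sensor of left-handed nucleic acids, was at 11.8 and 30.4 CPM. Irf9 at 58.6 and 56.3 CPM, and Ifi207 at 300.1 and 296 CPM, were the 2 members with a lower value in PS-MP. Per cell, the list summed to a median of 10 UMIs in control and 11 in PS-MP at 3500 UMIs, and its 90th percentile was 21 and 32 UMIs, so the libraries differed more in their high cells than in their middle.

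MHC class I genes, which present peptides from inside the cell to CD8 T cells, went the same way. Of 18 genes in the files, 13 were measured, of which 3 were 1.5-fold and 7 were 1.2-fold higher in PS-MP, and none was 1.2-fold lower. With 50 CPM in both libraries the counts were 2 and 5 of 10, against 0.85% and 7.54% of all 2705 such genes. The median log2 ratio of the 10 was 0.28. H2-K1 was at 1402 CPM in control and 2041 CPM in PS-MP (1.46-fold) and H2-D1 at 3991 and 5254 CPM (1.32-fold). The non-classical genes H2-Q7 at 64.3 and 120 CPM (1.87-fold, 1.52 to 2.28), H2-Q6 at 30.1 and 50.4 CPM (1.68-fold) and H2-T23 at 68.8 and 114 CPM (1.66-fold) were called. H2-Q6 reached 50 CPM in PS-MP alone. H2-T23 was 1.47-fold higher at an equal depth per cell. B2m, the shared light chain, was at 2817 and 3257 CPM (1.16-fold), and the chaperones Calr and Pdia3 were both at 0.916-fold. Class I genes are near-identical copies and differ between mice of an outbred strain, so their single values are uncertain.

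**Figure D4:**
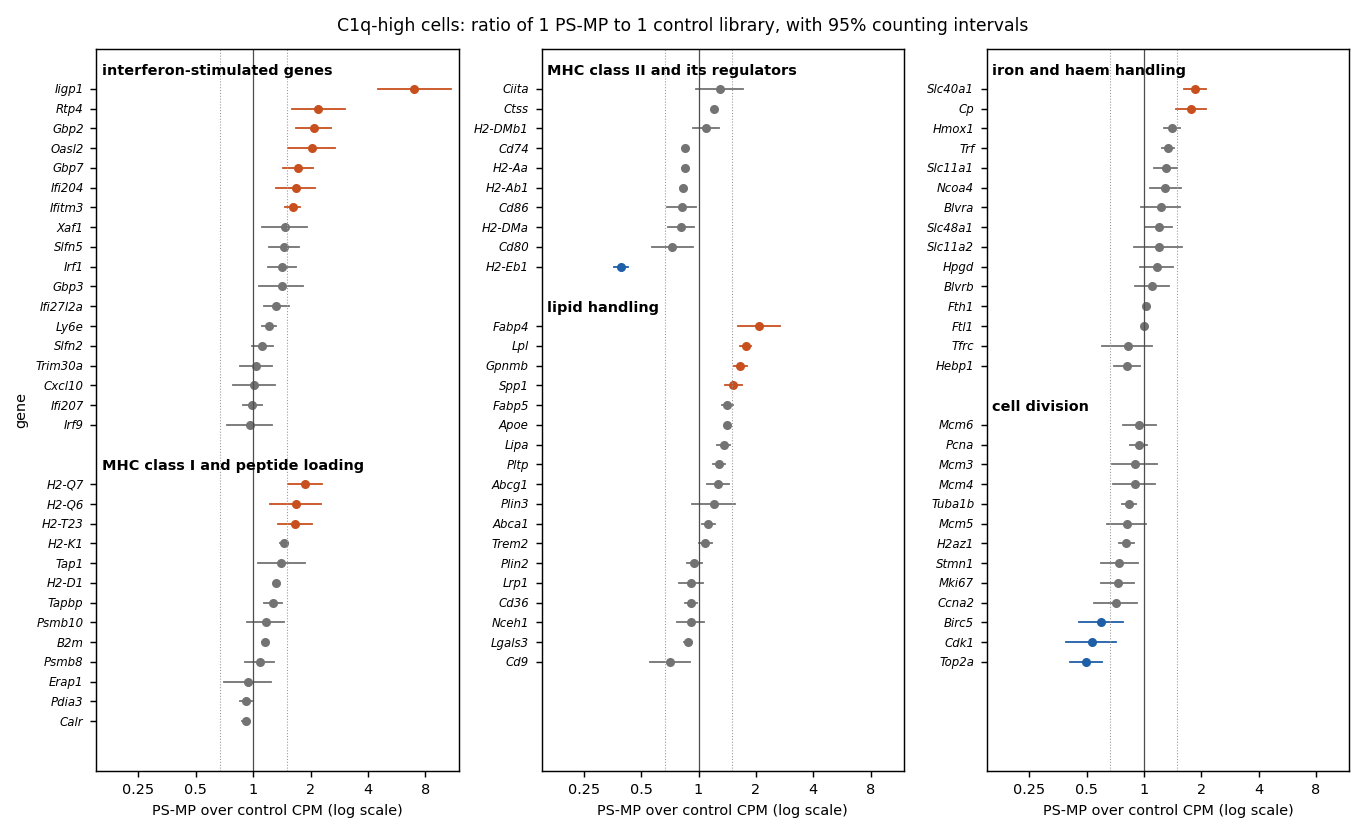
PS-MP over control ratio (x axis, log scale) of measured members of 6 gene lists in C1q-high macrophages, from 1 library per group; lines are 95% counting intervals and dotted lines mark 1.5-fold. Orange members are at least 1.5-fold higher, blue members at least 1.5-fold lower. Interferon-stimulated and MHC class I genes lie mostly right of 1, H2-Eb1 stands alone on the left of its list at 0.394, and all 13 measured cell division genes lie left of 1.

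The ratio plot also shows MHC class II, which presents peptides to CD4 T cells. Its 3 most abundant genes had ratios somewhat below 1: Cd74, the invariant chain, was at 7526 CPM in control and 6396 CPM in PS-MP, H2-Aa at 5483 and 4646 CPM and H2-Ab1 at 4238 and 3501 CPM, with ratios of 0.85, 0.847 and 0.826. Of 14 genes in the files, 10 were measured, 5 of them 1.2-fold lower and 2 higher, with a median log2 ratio of -0.26. Of all 3099 measured genes, 15.4% were 1.2-fold lower and 9.75% higher. The 2 higher genes were Ctss, a protease that processes the invariant chain, at 2977 and 3603 CPM, and Ciita, the master regulator of class II, at 42.4 and 54.8 CPM. Ciita reached 50 CPM in PS-MP alone. Cd80 and Cd86, which give T cells their second signal, were at 0.730 and 0.817-fold.

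H2-Eb1, the beta chain of the H2-E class II molecule, departed from the rest. It was at 1154 CPM in control and 454 CPM in PS-MP, a ratio of 0.394 (0.361 to 0.428) that stayed between 0.348 and 0.457 under every alternative setting tried. H2-Ea, the gene of its alpha chain partner, was at 820 and 562 CPM, a ratio of 0.685 (0.632 to 0.742). Among the cells with at least 20 UMIs of H2-Ab1, 227 in control and 86 in PS-MP, cells fell into a low and a high set for H2-Eb1. In control, 118 cells had under 0.1 H2-Eb1 UMIs per H2-Ab1 UMI, 5 cells had 0.1 to 0.2, and 104 cells had 0.2 or more. In PS-MP the numbers were 58, 4 and 24.

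Cells with 0.2 or more H2-Eb1 per H2-Ab1 were thus 45.8% in control (39.2 to 52.5%) and 27.9% in PS-MP (18.8 to 38.6%). Within those cells H2-Eb1 per H2-Ab1 was 0.576 in control and 0.395 in PS-MP, so both the share of high cells and their level were lower. Cells poor in H2-Ab1 had been left out of this comparison. Among those kept, H2-Ab1 was at 8337 CPM in the low and 7455 CPM in the high control cells, and at 6510 and 5798 CPM in PS-MP. H2-Aa per H2-Ab1 had a median of 1.29 and 1.30. In C1q-low myeloid cells the share with 0.2 or more was 34.6% in control (27.2 to 42.6%) and 35.2% in PS-MP (24.2 to 47.5%). In their high cells H2-Eb1 per H2-Ab1 was 0.582 in control and 0.440 in PS-MP, and over all of them H2-Eb1 was at 1633 and 1156 CPM. H2-Eb1 alleles differ between mice of outbred strains, and cells could not be assigned to mice, so animals and treatment cannot be told apart for this gene.

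**Figure D5:**
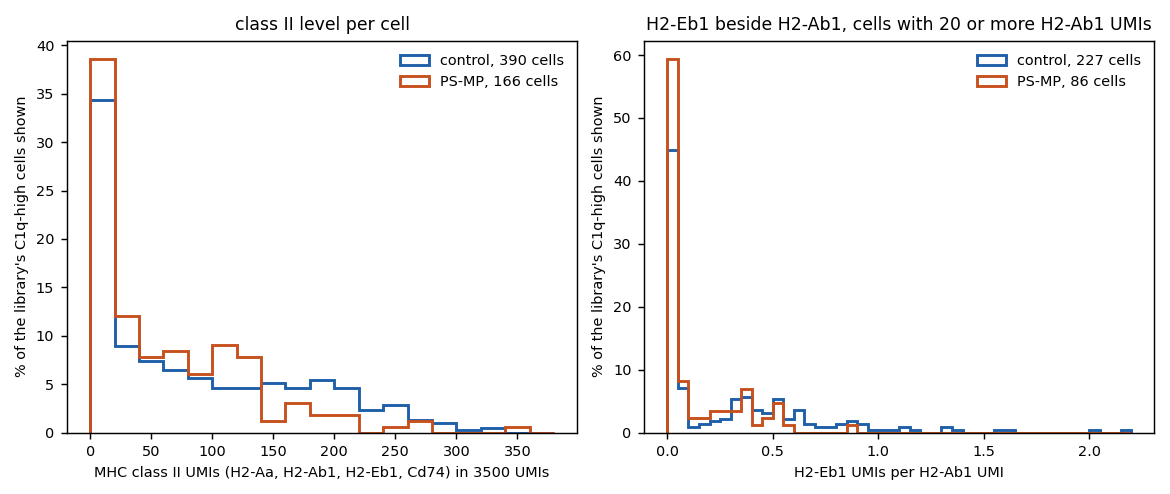
Left, UMIs of 4 class II genes per C1q-high cell at 3500 UMIs per cell (x axis) against the percentage of the library's cells (y axis), control blue and PS-MP orange. Right, H2-Eb1 UMIs per H2-Ab1 UMI in the 227 control and 86 PS-MP cells with at least 20 H2-Ab1 UMIs; both libraries show a low and a high set, with 45.8% and 27.9% of cells at 0.2 or more.

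The histograms of class II per cell show a wide spread in both libraries. The 4 genes summed to a median of 57.5 UMIs per control cell and 39 per PS-MP cell at equal depth, and ran from 1 UMI at the 10th percentile to 208 at the 90th in control, and from 1.5 to 142 in PS-MP. C1q-high macrophages therefore included cells with almost no class II in both libraries.

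Lipid-handling genes, which take up, store and export cholesterol and fatty acids, were higher in the summed cells of PS-MP. Of 23 genes in the files, 18 were measured, 4 of them 1.5-fold higher and none lower; 9 were 1.2-fold higher and 1, Cd9, was lower at 0.710-fold. With 50 CPM in both libraries, 3 of 17 were 1.5-fold and 8 were 1.2-fold higher, against 0.85% and 7.54% of all 2705 such genes. The median log2 ratio of the 17 was 0.26. Apoe, which encodes an apolipoprotein that macrophages secrete, was at 9356 CPM in control and 13234 CPM in PS-MP, 1.41-fold (1.39 to 1.44). Lipoprotein lipase (Lpl) was at 643 and 1137 CPM (1.77-fold, 1.66 to 1.88), the lysosomal glycoprotein gene Gpnmb at 509 and 846 CPM (1.66-fold, 1.54 to 1.79) and osteopontin (Spp1) at 296 and 451 CPM (1.53-fold).

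The fatty acid carrier genes Fabp4, at 39.5 and 82.2 CPM (2.08-fold), and Fabp5, at 731 and 1038 CPM (1.42-fold), were also higher. Mgll, which splits stored monoglycerides and was outside the list, was at 19.9 and 86.7 CPM, 4.36-fold (3.24 to 5.90). Fabp4 and Mgll reached 50 CPM in PS-MP alone. The lysosomal lipase Lipa was at 1.35-fold, the phospholipid transfer protein Pltp at 1.29-fold and the cholesterol exporter Abcg1 at 1.27-fold, while Plin2, which coats lipid droplets, was at 490 and 467 CPM. Spp1 ranged down to 1.08-fold when cells with 10 or more luteal marker UMIs were left out. Gpnmb ranged down to 1.22-fold and Lpl to 1.36-fold when cells with UMIs of other lineages were left out. An Lpl UMI was also found in 50.5% and 47.0% of granulosa cells at equal depth, and the carry-over estimate was 2.44% of the Lpl level. The estimate was 0.0643% for Apoe, 0.0355% for Gpnmb, 9.03% for Spp1 and 7.45% for Mgll.

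Lysosomal genes as a list moved little. Of 31 in the files, 27 were measured, 2 of them 1.5-fold higher and 4 of them 1.2-fold higher, with 1 lower and a median log2 ratio of 0.06. Of all 3099 measured genes, 1.68% were 1.5-fold higher, 9.75% were 1.2-fold higher and 15.4% were 1.2-fold lower. The strongest was Atp6v0d2, a subunit of the proton pump that acidifies lysosomes, at 182 CPM in control and 519 CPM in PS-MP, 2.85-fold (2.56 to 3.17). Without cells that had UMIs of other lineages it was 1.80-fold higher. The prosaposin gene Psap was at 7235 and 9264 CPM (1.28-fold), cathepsin B (Ctsb) at 8784 and 9946 CPM and Lamp1 at 916 and 919 CPM. Cathepsin L (Ctsl) was at 393 and 596 CPM, 1.52-fold, with 18.6% of its level estimated as carried over and a range of 1.17 to 1.65-fold.

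A minority of cells had an Atp6v0d2 UMI, and these lipid genes were at higher levels in them than in the other cells. At 3500 UMIs per cell, 14.1% (10.8 to 18.0%; 55 cells) of control cells and 22.3% (16.2 to 29.4%; 37 cells) of PS-MP cells had an Atp6v0d2 UMI, against 0.0426% and 0.137% of granulosa cells. Without thinning the shares were 18.2% and 25.3%. In the control library Gpnmb was at 1522 CPM in the cells with an Atp6v0d2 UMI and 115 CPM in those without. In PS-MP it was at 2208 and 73.1 CPM. Lpl was at 1834 and 304 CPM in control, and at 2564 and 326 CPM in PS-MP. Fabp5 was at 1527 and 340 CPM in control, and at 2409 and 117 CPM in PS-MP.

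Apoe followed the same split, at 16078 CPM with and 9008 CPM without an Atp6v0d2 UMI in control, and 22448 and 10131 CPM in PS-MP. The lipid sensor Trem2 was at 1081 and 394 CPM in control, and at 1259 and 272 CPM in PS-MP. The genes that were lower in the cells with Atp6v0d2 included Cx3cr1, at 473 against 958 CPM in control and 317 against 1037 CPM in PS-MP. Interferon-stimulated genes summed to 1958 against 3267 CPM in control and 2008 against 4633 CPM in PS-MP. Between the libraries, Lpl and Gpnmb differed mainly among the cells with an Atp6v0d2 UMI, and the interferon-stimulated sum among the cells without one; neither difference was tested. At this depth 1 UMI is worth about 286 CPM in a cell, so a cell without a UMI can still express the gene. Luteal markers summed to 140 and 165 CPM with and without Atp6v0d2 in control, and to 239 and 691 CPM in PS-MP. The part of carried-over RNA in the differences of Atp6v0d2 and the lipid genes was not tested.

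Iron and haem genes, used to recycle iron from engulfed cells, were moderately higher in PS-MP. Of 18 in the files, 15 were measured, 2 of them 1.5-fold higher, 7 of them 1.2-fold higher and 2 of them 1.2-fold lower. With 50 CPM in both libraries, 2 of 13 were 1.5-fold higher, against 0.85% of all 2705 such genes. At 1.2-fold, 7 of the 13 were higher and 1 was lower, against 7.54% and 12.2% of the 2705. The median log2 ratio of the 13 was 0.29. The iron exporter ferroportin (Slc40a1) was at 155 CPM in control and 289 CPM in PS-MP (1.86-fold, 1.63 to 2.12). Ceruloplasmin (Cp), the oxidase that loads exported iron onto transferrin, was at 86.3 and 153 CPM (1.77-fold, 1.48 to 2.11). Haem oxygenase 1 (Hmox1) was at 354 and 496 CPM (1.40-fold) and transferrin (Trf) at 586 and 785 CPM (1.34-fold). For Hmox1, 1 cell held 17.6% of the PS-MP UMIs and 1 cell held 9.68% of the control UMIs. The ferritin chains Ftl1, at 5482 CPM in both libraries, and Fth1, at 6459 and 6617 CPM, did not differ by 1.2-fold.

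Ceruloplasmin UMIs were found in 20.8% (16.9 to 25.1%) of control cells and 34.9% (27.7 to 42.7%) of PS-MP cells at equal depth, against 0.184% and 0.411% of granulosa cells, and in 29.5% and 47.0% of the C1q-high cells without thinning. Cells with Atp6v0d2 had little Cp, at 31.2 against 133 CPM in control and 23.2 against 261 CPM in PS-MP, so the higher Cp lay in the cells without an Atp6v0d2 UMI.

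Chemokine genes, whose products recruit leukocytes, did not move as a group. Of 13 measured members of 19, 1 was 1.5-fold higher, 3 were 1.2-fold higher and 1 was lower. Over all 3099 measured genes the shares were 1.68%, 9.75% and 15.4%. Ccl12, a monocyte attractant, was at 206 CPM in control and 429 CPM in PS-MP (2.08-fold, 1.87 to 2.32), and was detected at equal depth in 23.6% of control and 32.5% of PS-MP cells, against 0.0709% and 0.0548% of granulosa cells. Without thinning the shares were 36.7% and 36.1%, so the share of cells depended on depth. In PS-MP Ccl12 was at 38.6 CPM in the cells with Atp6v0d2 and 576 CPM in the others. In control the order was opposite, at 301 and 168 CPM. Another random thinning to the same depth gave 177 and 215 CPM in control, and 77.9 and 503 CPM in PS-MP. The order in control was therefore not stable. Ccl3 was at 1.27-fold and Ccl6 at 1.21-fold, while Ccl9 was at 650 and 511 CPM, 0.786-fold. Ccl2, Ccl7, Cxcl2 and Cxcl10 were within 1.2-fold.

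Chemokine receptors and other migration genes were lower in PS-MP. Of 16 in the files 14 had a lower CPM, against 56.9% of all genes with any UMI. Among 14 measured members, 6 were 1.2-fold lower and none was higher, against 15.4% and 9.75% of all 3099 measured genes. Ccr2 was at 315 CPM in control and 224 CPM in PS-MP (0.712-fold, 0.626 to 0.808) and Ccr1 at 141 and 101 CPM (0.720-fold). Cxcr4, a homing receptor, was at 269 and 217 CPM, the integrin gene Itga4 at 133 and 105 CPM, and Coro1a, which binds actin in leukocytes, at 539 and 429 CPM. None of these reached 1.5-fold.

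Cells with a Ccr2 UMI were 37.4% in control (32.6 to 42.4%; 146 cells) and 24.7% in PS-MP (18.3 to 32.0%; 41 cells) at equal depth, against 0.184% and 0.315% of granulosa cells. Without thinning they were 46.7% and 30.1%. In C1q-low myeloid cells the shares at equal depth were 69.5% and 84.4%. The C1q-high cells with Ccr2 were rich in class II, with the 4 genes summing to 36857 CPM against 16447 CPM without Ccr2 in control, and 31192 against 13477 CPM in PS-MP. They were poor in Slc40a1, at 35.2 against 266 CPM in control and 55.7 against 363 CPM in PS-MP. Tgfbi, a matrix protein gene, was higher in them, at 505 against 228 CPM in control and 432 against 194 CPM in PS-MP. Both class II and Tgfbi were also lower in PS-MP than in control within the cells with Ccr2 and within those without.

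Cells with a Folr2 UMI were 16.9% (13.3 to 21.0%; 66 cells) of control cells and 17.5% (12 to 24.1%; 29 cells) of PS-MP cells at equal depth. Without thinning the shares were 31.0% and 32.5%, and in granulosa cells they were 0.128% and 0.247% at equal depth. These cells had less class II, at 12190 against 26512 CPM in control and 9488 against 19622 CPM in PS-MP. The scavenger receptor Stab1 was higher in them, at 1381 against 770 CPM in control and 1241 against 836 CPM in PS-MP. Slc40a1 was at 268 against 161 CPM in control and 463 against 250 CPM in PS-MP. These splits rest on 29 to 146 cells with the marker and on no replicate.

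Fc receptors and their adaptors, which bind antibody-coated particles, were mostly even between the libraries. Of 16 genes, all measured, 1 was 1.5-fold higher and 1 was lower, and the median log2 ratio was 0.12. The lower gene, Cd300lf, reached 50 CPM in control alone. With 50 CPM in both libraries, 1 of 15 was 1.5-fold higher and 0 were lower, against 0.85% and 0.628% of all 2705 such genes. Fcgr4, the receptor for IgG2a and IgG2b, was at 74.2 CPM in control and 123 CPM in PS-MP (1.66-fold, 1.36 to 2.01; 1.41 to 1.77 over the other settings). Cd300lf, an inhibitory lipid receptor, was at 57.5 and 29.6 CPM (0.515-fold, 0.358 to 0.724; up to 0.688 over the other settings). Fcer1g and Tyrobp, the shared signalling adaptors, were at 0.998 and 0.971-fold.

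Among scavenger receptors, 9 of 16 were measured and none passed 1.5-fold. Msr1, which binds modified lipoproteins, was at 716 CPM in control and 505 CPM in PS-MP (0.705-fold), and the lectin gene Clec10a at 70.8 and 101 CPM (1.42-fold). Mrc1, Cd36, Stab1 and Folr2 were within 1.2-fold. Of 20 genes of apoptotic cell uptake 13 were measured and none passed 1.5-fold: the receptor kinases Axl and Mertk were at 1.21 and 1.19-fold, their ligand Gas6 was at 103 and 109 CPM with 30.6% of its level estimated as carried over, and Elmo1, which drives engulfment, was at 113 and 80.0 CPM (0.707-fold). Klra8 was at 162 and 268 CPM (1.66-fold, 1.45 to 1.89), but belongs to a family of near-identical genes. Siglec1, itself induced by interferon, was at 99.3 and 146 CPM (1.47-fold).

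Growth factor and matrix genes moved in both directions, with 2 of 16 measured members 1.5-fold higher (Gpnmb and Spp1, which are also lipid-handling members) and 1 lower. Over all 3099 measured genes, 1.68% were 1.5-fold higher and 1.55% lower. Tgfbi was at 305 CPM in control and 176 CPM in PS-MP (0.576-fold, 0.498 to 0.662), and 0.759-fold when each cell was weighted alike. A Tgfbi UMI was found in 51.0% (45.9 to 56.1%) of control cells and 39.2% (31.7 to 47.0%) of PS-MP cells. Without thinning the shares were 69.7% and 53.0%, and granulosa cells had 1.18% and 0.685% at equal depth. The elastase gene Mmp12 was at 145 and 100.01 CPM, and 50.4% of its PS-MP UMIs came from 1 cell. Insulin-like growth factor 1 (Igf1), a survival factor for follicle cells, was at 230 and 287 CPM (1.25-fold). Mmp13 was at 111 and 127 CPM.

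Cell division genes were lower in PS-MP. All 22 in the files had a lower CPM, where 43.1% of all genes with any UMI had a higher one. Of 13 measured, 3 were 1.5-fold lower, 8 were 1.2-fold lower and none was higher, and the median log2 ratio was -0.31. With 50 CPM in both libraries, which leaves out Cdk1, 2 of 12 were 1.5-fold lower and 7 were 1.2-fold lower, with a median of -0.30. Of all 2705 such genes, 0.628% were 1.5-fold and 12.2% were 1.2-fold lower. Top2a, which untangles replicated DNA, was at 191 CPM in control and 94.8 CPM in PS-MP (0.497-fold), the mitotic kinase Cdk1 at 74.8 and 40.0 CPM (0.535-fold), Birc5 at 86.8 and 51.9 CPM (0.597-fold) and Mki67 at 133 and 97.1 CPM (0.728-fold). The replication clamp gene Pcna was at 394 and 370 CPM. Granulosa cells divide too, and 19.7% of Top2a and 17.0% of Cdk1 in control were estimated as carried over. The estimated part was larger in PS-MP. It was 42.5 of the 94.8 CPM of Top2a and 18.3 of the 40.0 CPM of Cdk1 there.

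Cells with at least 3 UMIs of Mki67, Top2a, Cdk1, Ccna2 and Birc5 together at equal depth were 52 of 390 in control, or 13.3% (10.1 to 17.1%), and 13 of 166 in PS-MP, or 7.83% (4.24 to 13%), and the intervals overlapped. Without thinning the shares were 22.8% and 16.3%. In granulosa cells the shares at equal depth were 32.4% and 36.8%, in the opposite order, and in C1q-low myeloid cells 14% and 5.93%. With each cell weighted alike the median log2 ratio of the list was -0.08.

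Of 6 measured heat shock genes, 2 were 1.5-fold lower, against 1.55% of all 3099 measured genes. Both reached 50 CPM in control alone. With 50 CPM in both libraries, 0 of 4 were 1.2-fold lower, against 12.2% of all 2705 such genes. Hspa1b was at 70.6 CPM in control and 17.0 CPM in PS-MP, 0.241-fold (0.150 to 0.370), and its near-identical copy Hspa1a at 84.2 and 48.9 CPM, 0.581-fold. Hspa1b UMIs were found in 7.18% of control and 4.82% of PS-MP cells at equal depth, against 6.07% and 5.89% of granulosa cells. Without thinning the shares in C1q-high cells were 10.3% and 7.23%. Carried-over RNA was estimated at 3.75 of the 70.6 CPM in control and 6.81 of the 17.0 CPM in PS-MP. The Hspa1b UMIs came from 40 control and 12 PS-MP cells. Of the other measured members, Hspa8 at 1267 and 1159 CPM and Hsp90ab1 at 2150 and 2002 CPM were within 1.2-fold. Hspa1a and Hspa1b encode HSP70, which cells make under heat and protein stress.

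Another gene with a low ratio was Havcr2, the checkpoint receptor TIM-3, at 54.4 CPM in control and 22.2 CPM in PS-MP (0.409-fold, 0.269 to 0.601). Uck2, Pclaf, Kazn, Cpeb2, Heatr1 and Add3 were at 0.433 to 0.561-fold, all under 100 CPM in each library. Of these 7 genes, Pclaf alone reached 50 CPM in PS-MP. At the other end, the 4 highest ratios came from 1 cell. Of the PS-MP UMIs of Ighg2b, Jchain, Igkc and Slpi, 100%, 100%, 99.8% and 91.6% were in a single cell that was called a doublet. Without the cells that had a Jchain UMI, Igkc was at 0.144-fold and Slpi at 0.762-fold. Ighm, spread over 194 control and 81 PS-MP cells, was at 136 and 122 CPM.

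The remaining lists changed little. No member passed 1.5-fold among 23 measured transcription factors, 18 cytokine genes, 10 genes of the CSF1 receptor pathway, 18 of endoplasmic reticulum folding or 17 of the antioxidant response. Il1b was at 768 CPM in control and 677 CPM in PS-MP, Tnf at 88.6 and 95.6 CPM, the interleukin 1 receptor antagonist Il1rn at 322 and 217 CPM (0.675-fold) and Il10 at 53.3 and 39.3 CPM (0.736-fold). Maf, which maintains resident macrophages, was at 802 and 858 CPM. Bach1, a repressor that haem releases from DNA, was at 164 and 119 CPM (0.729-fold). Among 14 immediate early genes only Dusp2, a phosphatase gene, passed 1.5-fold, at 167 and 104 CPM (0.625-fold), with Fos at 1185 and 1030 CPM and Nfkbia at 637 and 777 CPM.

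The study's title names the cytoskeleton and epigenetic enzymes. In C1q-high macrophages 36 of 40 actin cytoskeleton genes were measured. None passed 1.5-fold and 5 were 1.2-fold lower, with a median log2 ratio of -0.10. Of all 3099 measured genes, 15.4% were 1.2-fold lower. Actb was at 15138 CPM in control and 14078 CPM in PS-MP, and vimentin (Vim) at 1753 and 1377 CPM (0.786-fold). Of 6 measured DNA methylation enzymes, Dnmt3a, a de novo methyltransferase, was 1.24-fold higher, at 139 and 172 CPM. However, 17.7% of the PS-MP UMIs of Dnmt3a came from 1 cell, against 3.20% of its control UMIs. Of 23 measured histone-modifying enzymes, 1 was 1.2-fold higher (Kmt2c, 1.29-fold) and 4 were lower, among them the demethylase Kdm7a at 148 and 104 CPM (0.698-fold). Nuclear respiratory chain genes had a median log2 ratio of -0.15, with 3 of 20 being 1.2-fold lower, and glycolysis genes of -0.09, with 1 of 8 lower.

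C1q-low myeloid cells of the same libraries were compared without the carry-over limit, using the same 50 CPM. Without that limit 107 of 3727 genes were 1.5-fold higher (2.87%) and 59 lower (1.58%) in C1q-high macrophages. Interferon-stimulated genes were higher in them too: 17 of 22 were 1.2-fold higher and 1 was lower, against 20.3% and 15.4% of 3835 genes, and the median log2 ratio was 0.64. In C1q-high macrophages counted the same way, 15 of 20 were higher, against 12.2% of 3727 genes, with a median of 0.52. Lipid-handling genes went the other way, with 3 of 19 higher and 10 lower in C1q-low cells (median log2 -0.26) and 9 of 19 higher and 1 lower in C1q-high macrophages (0.26). Apoe was at 3246 CPM in control and 2391 CPM in PS-MP in C1q-low cells, and Gpnmb at 691 and 350 CPM. MHC class I had medians of 0.09 in C1q-low cells and 0.35 in C1q-high macrophages. Chemokine receptor genes had a median of 0.20 in C1q-low cells, with 5 of 14 higher and none lower.

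In granulosa cells only 3 interferon-stimulated genes reached 50 CPM, and none was 1.2-fold different, against 1.3% higher and 4.59% lower of 4012 genes. The same held for 6 MHC class I genes there, with a median log2 ratio of 0.01. Differences between populations were not tested, since each has 1 library per group.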

How the data were processed

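Per the labels' protocols, ovaries of different mice were digested, captured on the BD Rhapsody system and sequenced on an Illumina Novaseq in PE150 mode; the submitters' processing notes name GRCm39 and Seurat, and which aligner and counter made the counts is not given in the sources used here. The authors deposited 1 matrix of UMI counts per library, with no cell annotation; values were whole numbers and were used as deposited. No file ties cells to mice, so no p-value or standard error was computed.

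Kept cells had at least 500 genes and at most 25% mitochondrial counts. UMIs of the selected cells were summed per library and scaled to CPM; ratios carry exact conditional binomial 95% intervals and shares exact Clopper-Pearson ones. List medians used log2 of CPM + 1. Expected carry-over of a gene was the sum over granulosa, luteal, thecal, stromal, endothelial and oocyte cells of the marker share times the gene's level in those cells. Cells were thinned to 3500 UMIs (no selected cell had fewer) with seed 1. Doublets (scanpy 1.11.5, Scrublet, expected rate 0.05; 2.12% and 2.42% of kept cells called) were left in except in an alternative. Python 3.11.15, numpy 2.4.6, scipy 1.17.1 and pandas 2.3.3 were used. Summing and intervals were tested on simulated data.

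The cells, the 26 gene lists and the 17 marker lists were chosen with earlier results of these data known. Named genes were the 12 highest and 12 lowest ratios, the 15 most specific genes, up to 4 members per list with the largest ratios, and the markers; list members named beyond these, and H2-Ea, were chosen after their values were seen. Promoter sequences are from RefSeq, GRCm38.p6. Alternatives changed the cell limits, the carry-over treatment, the depth, the weighting of cells, the CPM minimum and the pseudocount (5 CPM). Some genes that enter the counts are not reported singly here.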

Additional observations from a re-analysis of the deposited data

How the results depend on the processing

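No paired analysis was possible because each group is 1 library, and for the same reason no replicate could be left out. The share of C1q-high macrophages was 2.34% in control with a C1q sum of 3000 CPM, 4.06% in control and 1.72% in PS-MP with at most 10% mitochondrial counts, 2.03% and 0.758% without cells that had UMIs of other lineages (at least 2 of Cyp11a1, 2 of Cyp17a1 or 3 of Col1a1), and 30.3% and 26.0% of cells with a Ptprc UMI. It was lower in PS-MP under each of these. The 52 genes called higher and 48 lower became 95 and 94 without the cells with UMIs of other lineages (38 and 28 shared with the first count), 88 and 117 at 3500 UMIs per cell (37 and 26 shared), 85 and 86 with expected carry-over subtracted (51 and 41 shared), 140 and 202 at 20 CPM, 21 and 8 at 100 CPM, and 1389 and 3490 for any gene with a count. Called doublets left out gave 53 and 67. Without the cells with UMIs of other lineages the median log2 ratio was 0.19 for transcription factors and 0.0544, reversed, for histone enzymes. Transcription factors were at 0.16 without cells with 10 or more luteal marker UMIs, a setting added after seeing the data, and at 0.16 with carry-over subtracted, when complement genes were at 0.21 and Fc receptors at 0.22. Cell division was at -0.0767 with cells weighted alike and the respiratory chain at -0.21 at equal depth. Igkc and Slpi reversed to 0.143 and 0.767, and Jchain fell to 0, without called doublets; without cells with a Jchain UMI, also added later, Igkc was at 0.144 and Slpi at 0.762. The medians ranged from 0.36 to 0.70 for interferon-stimulated genes, from 0.07 to 0.36 for lipid handling, from 0.22 to 0.40 for MHC class I, from -0.37 to -0.15 for MHC class II and from 0.13 to 0.37 for iron. The depth of 1349813 summed PS-MP UMIs leaves genes under 50 CPM too thinly counted to be read singly. The cause of these shifts was not tested.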
